A study of Homo sapiens with 21 samples.

Results

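Intergenic S9.6 peaks are places outside the genes of the authors' count table with signal of S9.6, an antibody to DNA-RNA hybrids. They were called in MDA-MB-436, an established human line of BRCA1-mutant breast cancer. A peak was counted as intergenic when its summit lay in no gene of the count table, more than 1000 bp from any gene start and more than 5000 bp beyond any gene end. On chromosomes 1 to 22 and X, 25637 of the 253906 peaks of the 6 untreated S9.6 libraries met this rule (10.1%). The rule used position only, and the nearest gene, the side, the library and the response to RNase played no part in it.

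Cells in which a lentiviral hairpin against RNF8 (shRNF8) is switched on by doxycycline were set against cells with a control hairpin (shScr) of the same system. Hybrids were precipitated from sheared chromatin with the S9.6 antibody (DRIP-seq) in 4 shRNF8 and 2 shScr libraries, each matched by number to a library treated with RNase, and polyadenylated RNA was sequenced in 3 shRNF8 and 3 shScr libraries. All groups share the BRCA1-mutant line, 1 RNF8 hairpin is labelled, and the labels give no dose, time or clone and name the RNase only by a code. Whether replicate libraries stem from different cultures is not labelled, so the p-values reflect the spread between libraries, and that spread may be technical only. The input libraries were not analysed here.

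R-loops form when a nascent transcript pairs with its DNA template and displaces the other strand, and they are favoured by runs of G in the displaced strand. Outside genes they can arise where RNA polymerase II runs on beyond a gene end before XRN2, an exonuclease that degrades the trailing transcript, helps to release it, and at unannotated transcripts such as enhancer RNAs, divergent promoter transcripts and long non-coding RNAs. Repeats near centromeres and telomeres can also be transcribed into hybrids. RNF8 is a ubiquitin ligase of the response to DNA double-strand breaks, and the series title links it to XRN2 and the removal of R-loops.

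The libraries were checked before the comparisons. RNF8 had 175, 195 and 142 counts in the 3 shRNF8 RNA libraries, against 561, 537 and 553 counts in the 3 shScr RNA libraries (log2 fold change -1.66, edgeR adjusted p = 0.000165). The mesenchymal markers VIM and CD44 stood at 893 to 1149 CPM and 559 to 588 CPM over the 6 RNA libraries. Of 5 genes expected to be low or absent, ESR1, PGR, CDH1 and EPCAM did not exceed 0.103, 0.103, 0.206 and 0.861 CPM. ERBB2, also among those 5, stood higher, at 48.4 to 62.7 CPM. Among markers of other cells CD3E was at 0 in every library and PTPRC at no more than 0.0506 CPM. The sum of that list of 5 genes, nearly all of it CD68, ran from 141 to 153 CPM in shRNF8 and from 110 to 131 CPM in shScr, and its part in the results was not tested. Among DRIP libraries, shRNF8 replicates 3 and 4 stood apart, with the longest peak lists of the group. Replicate 3 shared 61.4% of its intergenic peaks with replicate 4, and replicate 4 shared 66.5% with replicate 3, but only 22.01% to 23.2% of their intergenic peaks overlapped those of shRNF8 replicate 1 or 2. In the other direction, 62.3% to 65.9% of the intergenic peaks of shRNF8 replicates 1 and 2 overlapped those of replicate 3 or 4.

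A small part of the intergenic regions, 145 of them (1.51%), lie over promoters that a newer annotation lists and the authors' count table does not. In RefSeq (GRCh38.p14), 161 promoter windows, from 250 bases before to 50 bases after a gene start, belonged to genes absent from the count table and overlapped an intergenic region, and 142 of these genes are long non-coding RNAs. These windows averaged 62.8% GC, against 51.3% over all 11192 windows of genes absent from the table and 66.4% over the 11319 windows under genic regions. A G-quadruplex motif (4 runs of GGG with 1 to 7 bases between runs, searched on both strands, so CCC on the strand read) was found in 28.0% of the 161 windows, against 25.0% of all 34961 promoters, 15.2% of all windows of genes absent from the table and 38.6% of those under genic regions. A match is a description of the letters and not a measured structure.

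Promoter windows are printed below for the windows of that kind under the regions with the highest mean fold, 2 called in all 6 S9.6 libraries, 1 called in all 4 shRNF8 and no shScr library, and 1 called in both shScr and no shRNF8 library. Each is read 5′ to 3′ on the gene's own strand, with runs of at least 3 G in capitals, and all sequences and positions are from RefSeq, build GRCh38.p14.
LOC105375535: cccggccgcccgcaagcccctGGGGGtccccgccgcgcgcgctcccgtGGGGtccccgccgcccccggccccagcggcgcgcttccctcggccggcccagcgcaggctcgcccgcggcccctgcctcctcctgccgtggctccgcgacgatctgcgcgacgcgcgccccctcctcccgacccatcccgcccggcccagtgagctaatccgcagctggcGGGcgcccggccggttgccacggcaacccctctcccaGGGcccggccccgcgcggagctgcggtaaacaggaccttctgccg
MIRLET7A1HG: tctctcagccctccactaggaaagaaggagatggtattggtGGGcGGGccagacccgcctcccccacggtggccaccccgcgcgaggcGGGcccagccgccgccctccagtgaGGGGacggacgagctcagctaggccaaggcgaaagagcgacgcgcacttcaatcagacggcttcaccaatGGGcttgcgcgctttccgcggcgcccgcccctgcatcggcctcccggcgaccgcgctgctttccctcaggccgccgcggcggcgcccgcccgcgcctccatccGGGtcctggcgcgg
LOC124900877: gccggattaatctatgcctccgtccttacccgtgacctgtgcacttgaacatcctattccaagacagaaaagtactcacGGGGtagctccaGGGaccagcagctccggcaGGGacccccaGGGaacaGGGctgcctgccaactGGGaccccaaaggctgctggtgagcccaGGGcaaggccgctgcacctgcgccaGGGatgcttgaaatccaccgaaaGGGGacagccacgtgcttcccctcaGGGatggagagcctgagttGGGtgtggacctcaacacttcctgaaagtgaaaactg
LOC124903643: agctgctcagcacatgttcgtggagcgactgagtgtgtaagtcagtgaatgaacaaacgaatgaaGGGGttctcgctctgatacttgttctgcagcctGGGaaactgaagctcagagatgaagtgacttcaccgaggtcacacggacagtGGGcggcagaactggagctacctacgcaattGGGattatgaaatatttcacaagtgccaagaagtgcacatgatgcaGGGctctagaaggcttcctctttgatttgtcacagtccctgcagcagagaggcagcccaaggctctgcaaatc
LOC105375535 lies at chr7:140640659-140640958 on the plus strand. It has 80.7% GC, 4 runs of G and 23 runs of at least 3 C, and it matched the motif on the opposite strand. MIRLET7A1HG, the host transcript of a let-7 microRNA cluster, lies at chr9:94166008-94166307 on the plus strand and has 72.7% GC. LOC124900877 at chr4:186840769-186841068 on the minus strand has 11 runs of G in 59.3% GC. LOC124903643 at chr16:11640212-11640511 on the plus strand has 5 runs of G in 50.3% GC. None of MIRLET7A1HG, LOC124900877 and LOC124903643 matched the motif on either strand in this window.

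The regions over these starts had peaks as follows, with fold meaning the authors' enrichment of a peak over its local background, which can be read within a library but not compared between libraries. The region over MIRLET7A1HG (chr9:94163191-94168647) had folds of 10.3, 14.2, 12.5 and 9.65 in shRNF8 replicates 1 to 4, against 19.1 and 16.3 in shScr replicates 1 and 2. That of LOC124900877 (chr4:186840795-186841236) had folds of 5.58, 5.001, 4.27 and 3.08 in the 4 shRNF8 libraries and no peak in either shScr library. The region over LOC124903643 (chr16:11640017-11641470) had folds of 7.64 and 7.67 in the 2 shScr libraries and no peak in any shRNF8 library. No RNase-treated library had a peak in these 3 regions.

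The first comparison asked whether RNF8 depletion changed how many peaks lie outside genes. Intergenic peaks numbered 2724, 3061, 5612 and 5321 in shRNF8 replicates 1 to 4, against 5237 and 3682 in shScr replicates 1 and 2. The groups overlapped, and the mean difference of -280 peaks was within the spread between libraries (exact permutation over 15 splits, two-sided p = 0.733, smallest possible 0.0667). As a share of each library's peaks they made up 8.42%, 8.98%, 11.01% and 10.96% in shRNF8, against 10.6% and 9.52% in shScr. The shares averaged 9.84% ± 1.34 in shRNF8 (SD, n = 4) and 10.1% ± 0.780 in shScr (SD, n = 2), a difference of -0.23 percentage points (exact permutation p = 0.8). Its sign turned without shRNF8 replicate 1, shRNF8 replicate 2 or shScr replicate 1 (0.240, 0.0543 and 0.317 points), and with the 30000 peaks of lowest q in each library (0.206 points).

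Treatment with RNase, which removes hybrids and serves as the background control, left few peaks, and a larger share of those was intergenic. Pooled over the RNase-treated libraries, 2494 of 5005 peaks were intergenic (49.8%). The intergenic share was 69.7%, 55.6%, 42.5% and 55.1% in the RNase-treated shRNF8 libraries and 51.0% and 52.0% in the RNase-treated shScr libraries. Every RNase-treated library lay above every untreated one, with a mean of 54.3% ± 8.89 against 9.92% ± 1.10 (SD, n = 6 each). That difference of 44.4 points was larger than the spread between libraries (exact permutation within each hairpin, p = 0.00476, the smallest of 420 splits). The RNase-treated lists were short, with 254 to 1912 peaks on these chromosomes, against 32358 to 50963 in the untreated libraries.

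**Figure D1:**
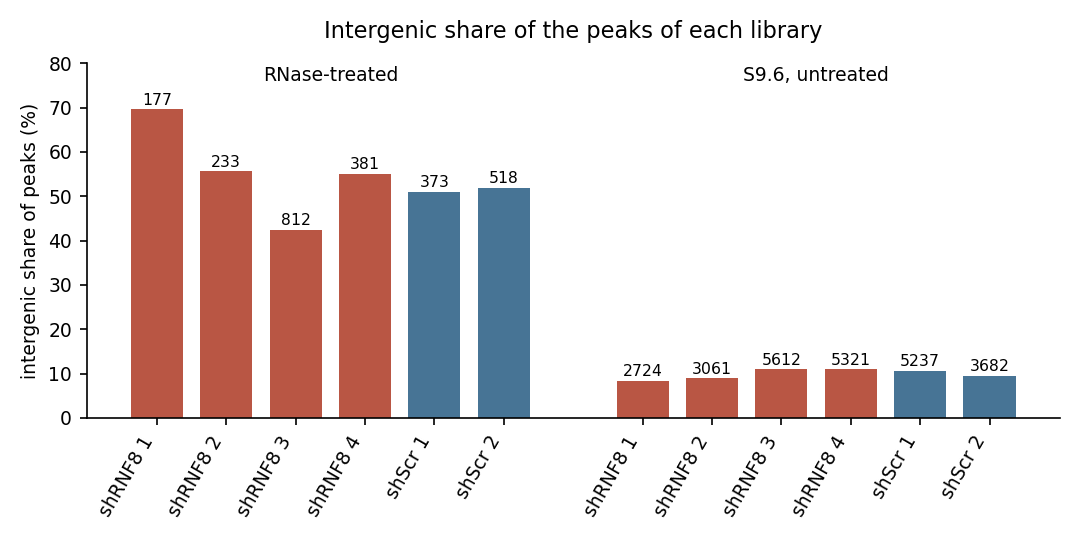
Bars give the share of each library's peaks that is intergenic, in percent, for the RNase-treated libraries (left) and the untreated S9.6 libraries (right), with shRNF8 in red and shScr in blue. The number above a bar is the count of intergenic peaks; the RNase-treated libraries reach 42.5% to 69.7%, and the untreated ones 8.42% to 11.01%.

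Within each untreated library, intergenic peaks were set against the remaining, genic peaks. They had a lower fold and were narrower in 6 of 6 libraries. The median fold ran from 4.43 to 5.23 for intergenic peaks and from 4.44 to 5.59 for genic peaks, a mean difference of -0.22 ± 0.133 (SD over 6 libraries), though in shRNF8 replicate 4 the difference was -0.0101. Median widths were 433 to 562 bp for intergenic peaks and 533 to 673 bp for genic peaks, a mean difference of -117 bp ± 16.9 (SD, n = 6). An exact sign-flip test over the 6 libraries gave p = 0.03125 for each, the smallest it allows. When every summit outside a gene span was counted as intergenic, with no distance rule, the difference in fold was -0.0653 (exact sign-flip p = 0.0625).

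Intergenic peaks also overlapped peaks of the RNase-treated library of the same number more often. The share was 2.31%, 2.97%, 2.94% and 2.10% in shRNF8 replicates 1 to 4 and 3.28% and 2.82% in shScr replicates 1 and 2. For genic peaks it was 0.175%, 0.412%, 1.03% and 0.340% in shRNF8 and 0.509% and 0.626% in shScr. The difference averaged 2.22 points ± 0.384 (SD, n = 6) and had the same sign in 6 of 6 libraries (exact sign-flip p = 0.03125). At most 3.28% of the intergenic peaks of a library thus had a counterpart in its RNase-treated list.

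Peaks of the 6 untreated libraries that shared at least 1 bp were merged into 73564 regions, of which 9620 held intergenic summits only (13.1%). Intergenic regions were less widely shared than regions overall. Part of this follows from the rule, since any genic summit makes a region genic and regions of more libraries hold more summits. The 1338 regions with both kinds of summit count as genic, and the size of that part was not tested. A single library called 5623 of them (58.5%), 2 libraries called 2045, 3 called 801, 4 called 508, 5 called 331, and all 6 called 312. The 312 make 3.24%, against 10.9% of all regions and 12.05% of the genic ones. Regions called in all 6 libraries were long, with a median width of 2819 bp against 478 bp over all intergenic regions, and 106 intergenic regions exceeded 5 kb.

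**Figure D2:**
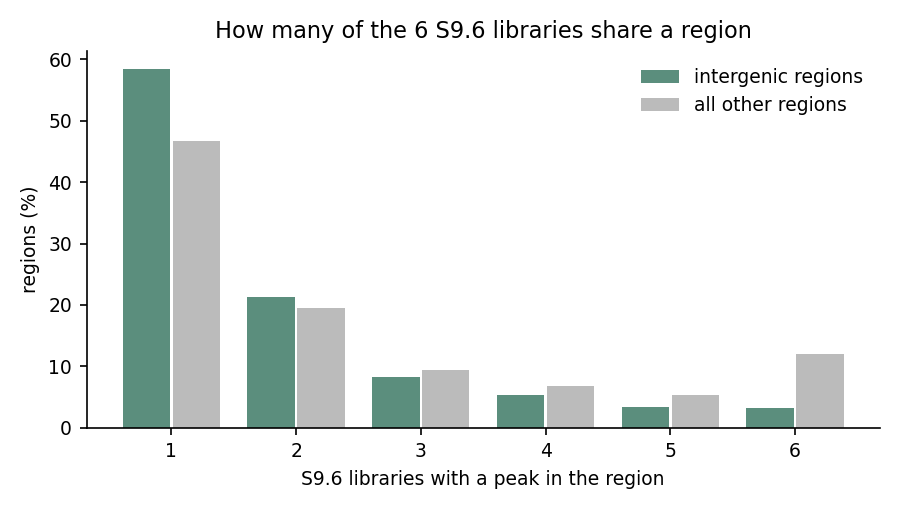
The x axis gives the number of S9.6 libraries with a peak in a region and the y axis the percent of regions, for intergenic regions (green) and all others (grey). Intergenic regions reach 58.5% at 1 library and 3.24% at 6, and the others 46.7% and 12.05%. The others include the 1338 regions that held both kinds of summit.

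Intergenic regions clustered around genes. Of the 9620 regions, 79.9% lay within 20 kb of a gene, whereas 21.5% of the 1554.89 Mb of intergenic sequence did when it was divided into tiles of 1000 bp. The median distance was 8321.5 bp for the regions and 80546 bp for the tiles. Density fell with distance in each step, with 48.0 regions per Mb at 1 to 2 kb, 28.3 at 5 to 10 kb, 4.46 at 20 to 50 kb, 0.522 at 100 to 500 kb and 0.282 beyond 500 kb. How much of the tiled sequence is unsequenced or unmappable was not tested, by distance or by chromosome. Peaks between 1 and 5 kb are upstream of a gene by construction, since the rule leaves out the first 5 kb beyond a gene end. Chromosome 19 had the most intergenic regions per Mb, 36.4, followed by chromosome 22 with 24.5 and chromosome 17 with 17.3, and chromosome 13 the fewest with 1.94. As a share of all S9.6 regions on the chromosome, intergenic ones made up 13.7%, 14.6%, 11.9% and 10.2% there, against 13.1% over all chromosomes. By that share chromosome 21 was highest, at 18.4%.

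**Figure D3:**
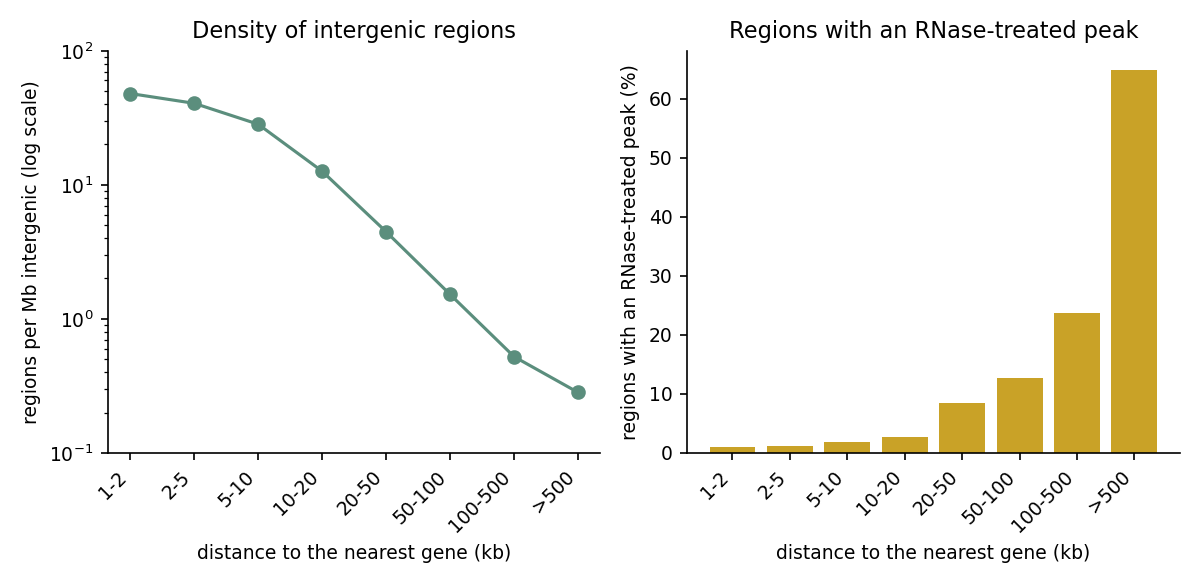
Points in the left panel give intergenic regions per Mb of intergenic sequence on a log scale, and bars in the right panel the percent of regions that overlap a peak of any RNase-treated library, both by distance to the nearest gene in kb. Density is highest at 1 to 2 kb (48.0 per Mb) and the RNase-treated share is highest beyond 500 kb (64.9%).

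The genes next to these regions were mostly transcribed. An intergenic region lay within 50 kb of 3691 genes as their nearest gene, and 75.8% of those genes reached at least 1 RPKM in the mean of the 6 RNA libraries (median 8.12 RPKM). Of the 14662 genes that border intergenic sequence within 50 kb but have no such region, 39.6% reached 1 RPKM (median 0.186 RPKM). These shares are a description across genes, which differ in length and in the amount of intergenic sequence beside them. Genes next to the 312 regions called in all 6 libraries had a median of 13.9 RPKM.

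Most regions fell outside the genes of the newer annotation too. RefSeq places 6585 of the 9620 regions (68.5%) in no gene. Long non-coding RNA genes absent from the count table hold 1401, longer models of genes in the table hold 1310, and protein-coding genes and pseudogenes absent from the table hold 133 and 154. The remaining 37 lie in RefSeq entries of other classes. Of these, 27 overlapped an RNase-treated peak (73.0%, against 4.63% of those in no RefSeq gene). The share of intergenic sequence that lies in RefSeq genes is not given here. Regions in all 6 libraries made up 3.14% of those in long non-coding RNA genes, 3.74% of those in longer models, 7.52% (10 of 133) and 7.79% (12 of 154) of those in protein-coding genes and pseudogenes absent from the table, and 2.98% of those in no RefSeq gene.

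Between 5 and 50 kb from the nearest gene, where both sides can be counted, 3799 of 6538 regions (58.1%) lay downstream of it, against 48.2% of the intergenic sequence at that distance. Genes with such a downstream region had a median level of 9.08 RPKM, and genes with an upstream region at the same distance 7.22 RPKM. The side was then compared between hairpins, a comparison added after the data were seen. Of intergenic peaks at this distance, 59.0%, 60.4%, 59.4% and 57.9% were downstream in shRNF8 replicates 1 to 4, against 63.0% and 64.2% in shScr replicates 1 and 2. All 4 shRNF8 libraries lay below both shScr libraries, and the part of peak-list length in this was not tested. The means were 59.2% ± 1.05 in shRNF8 (SD, n = 4) and 63.6% ± 0.861 in shScr (SD, n = 2), a difference of -4.44 points (exact permutation p = 0.0667, the smallest the design allows, so it cannot pass 0.05). The RNase-treated libraries stood at 46.2% to 54.1%.

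The difference in side was seen close to gene ends. At 5 to 10 kb the downstream share was 60.5%, 61.4%, 60.8% and 58.5% in shRNF8, against 65.8% and 66.0% in shScr. At 10 to 20 kb it was 59.2%, 60.6%, 62.5% and 61.8% in shRNF8, against 63.7% and 66.3% in shScr. At 20 to 50 kb the groups overlapped, with 54.8%, 57.7%, 47.3% and 48.2% in shRNF8 against 53.6% and 53.1% in shScr. Among peaks in no RefSeq gene, where longer gene models are left out, the shares were 63.2%, 62.9%, 63.4% and 61.6% in shRNF8, against 66.8% and 68.2% in shScr, a difference of -4.69 points (exact permutation p = 0.0667). The peak lists give no read depth, and its part in this difference was not tested. With the 30000 peaks of lowest q from each library the difference was -4.94 points.

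**Figure D4:**
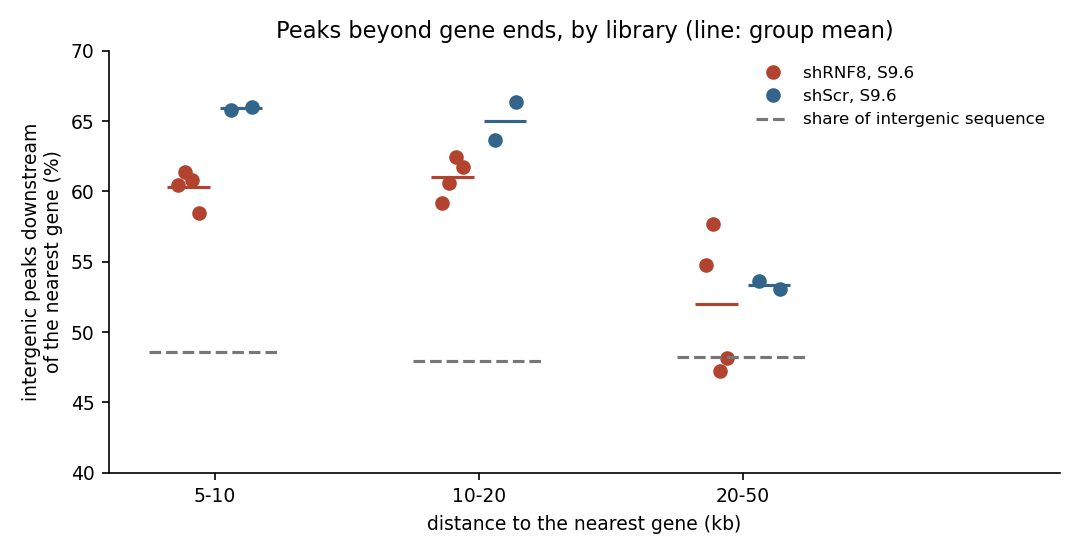
Points give, for each S9.6 library, the percent of intergenic peaks that lie downstream of their nearest gene, by distance in kb, with shRNF8 in red, shScr in blue and a line at each group mean. The dashed line is the downstream share of the intergenic sequence itself, 48.0% to 48.6%, and the shRNF8 points lie below the shScr points up to 20 kb but not at 20 to 50 kb.

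Regions called in every library of one hairpin and in none of the other were few. All 4 shRNF8 and no shScr library called 39 of the 9620 intergenic regions (0.405%), against 0.73% of all regions. Both shScr and no shRNF8 library called 324 (3.37%), against 2.49% of all regions. The 2 counts cannot be set against each other, since 1 asks for agreement of 4 libraries and absence in 2, and the other for agreement of 2 and absence in 4. Of the 39 shRNF8 regions 2 overlapped an RNase-treated peak, and of the 324 shScr regions 16, against 4.12% of all intergenic regions. Among those 5 to 50 kb from a gene, 11 of 25 shRNF8 regions (44.0%) and 164 of 242 shScr regions (67.8%) were downstream of it. Over all intergenic regions at that distance the share was 58.1%. These regions stem from the same peaks as the downstream shares above, so they are not a separate observation. Counts of this kind rose whenever a library was left out, because fewer libraries then had to be alike. Without shRNF8 replicate 2 there were 137 shRNF8 regions (1.49%, against 2.15% of all regions). Without shRNF8 replicates 1 and 4 in turn there were 121 (1.30%, against 1.65%) and 68 (0.753%, against 1.10%). Without shScr replicate 1 there were 88 (1.03%, against 1.80%). The shScr regions numbered 916 without shScr replicate 1 (10.7%, against 7.95%) and 1637 without shScr replicate 2 (17.7%, against 12.4%).

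The strongest regions shared by all 6 libraries and free of any RNase-treated peak lay beside genes of varied function. First by mean fold was chr7:140635446-140642141, 32.0 kb upstream of ADCK2 and over the start of LOC105375535 printed above, with folds of 30.6, 17.1, 16.0 and 17.6 in shRNF8 replicates 1 to 4 and 24.8 and 21.2 in shScr replicates 1 and 2. Next came chrX:153680106-153686583, 2.30 kb upstream of the creatine transporter gene SLC6A8 and inside a longer model of the kinase gene PNCK, with folds of 18.05, 13.1, 24.7 and 20.1 in shRNF8 and 13.0 and 11.8 in shScr. The region chr12:52137670-52150959 spans 13.3 kb that RefSeq leaves without a gene, 24.0 kb downstream of the keratin gene KRT80, with folds from 9.08 to 21.6 in shRNF8 and of 23.8 and 15.3 in shScr. These regions had a peak in every untreated library and in no RNase-treated one.

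The remaining regions of that class were chr5:855695-857695 upstream of ZDHHC11, in the protein-coding RefSeq gene LOC128966726, chr22:49935908-49940704, 11.3 kb downstream of CRELD2, and chr19:786722-796378. The last of these spans 9.66 kb and lies 1.95 kb upstream of PTBP1, a repressor of splicing, with folds of 9.17, 11.05, 13.96 and 14.1 in shRNF8 and 21.3 and 19.5 in shScr. The longest intergenic region, chr22:42295593-42315955, covered 20.4 kb within a longer model of TCF20, a transcriptional regulator, and was called in all 6 libraries with folds of 4.71 to 8.75 in shRNF8 and 6.15 and 5.21 in shScr. The others of great length were chr10:42305907-42322475 (16.6 kb), which 4 RNase-treated libraries also called, and chr17:81334381-81349051 (14.7 kb) over the long non-coding RNA RENO1.

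Of regions called in all 4 shRNF8 and no shScr library, the highest was chr9:137592134-137597443, 3.39 kb upstream of ZMYND19 and in LOC124902318, a long non-coding RNA, with folds of 4.79, 5.44, 9.82 and 6.15. A region 1.59 kb upstream of POLM, the gene of DNA polymerase mu of end joining (chr7:44083545-44084819), had folds of 5.46, 4.53, 8.90 and 6.46. A further one, chr16:88559897-88561927, lay in ZC3H18-DT, a transcript divergent from ZC3H18, which encodes a partner of the nuclear cap-binding complex in RNA decay, with folds of 5.30, 5.65, 7.63 and 6.05. The region 49.4 kb upstream of the endocytosis gene SNX9 (chr6:157772799-157775205) was also called in 5 RNase-treated libraries, both shScr ones among them.

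Of those called in both shScr and no shRNF8 library, chr9:94467143-94468321, 7.29 kb downstream of HIATL1, had folds of 10.3 and 8.70. The region chr1:27017176-27017634, 4.67 kb upstream of FAM46B, a poly(A) polymerase gene, had folds of 7.22 and 11.4. The region chr2:73750782-73751485 lay 10.9 kb downstream of DUSP11, which encodes a phosphatase of RNA 5′ ends, and had folds of 7.502 and 10.2. LINC01163 was the nearest gene, at 74.9 kb, of chr10:128210631-128211423 with folds of 9.92 and 7.25. None of these 4 had a peak in an RNase-treated library.

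**Figure D5:**
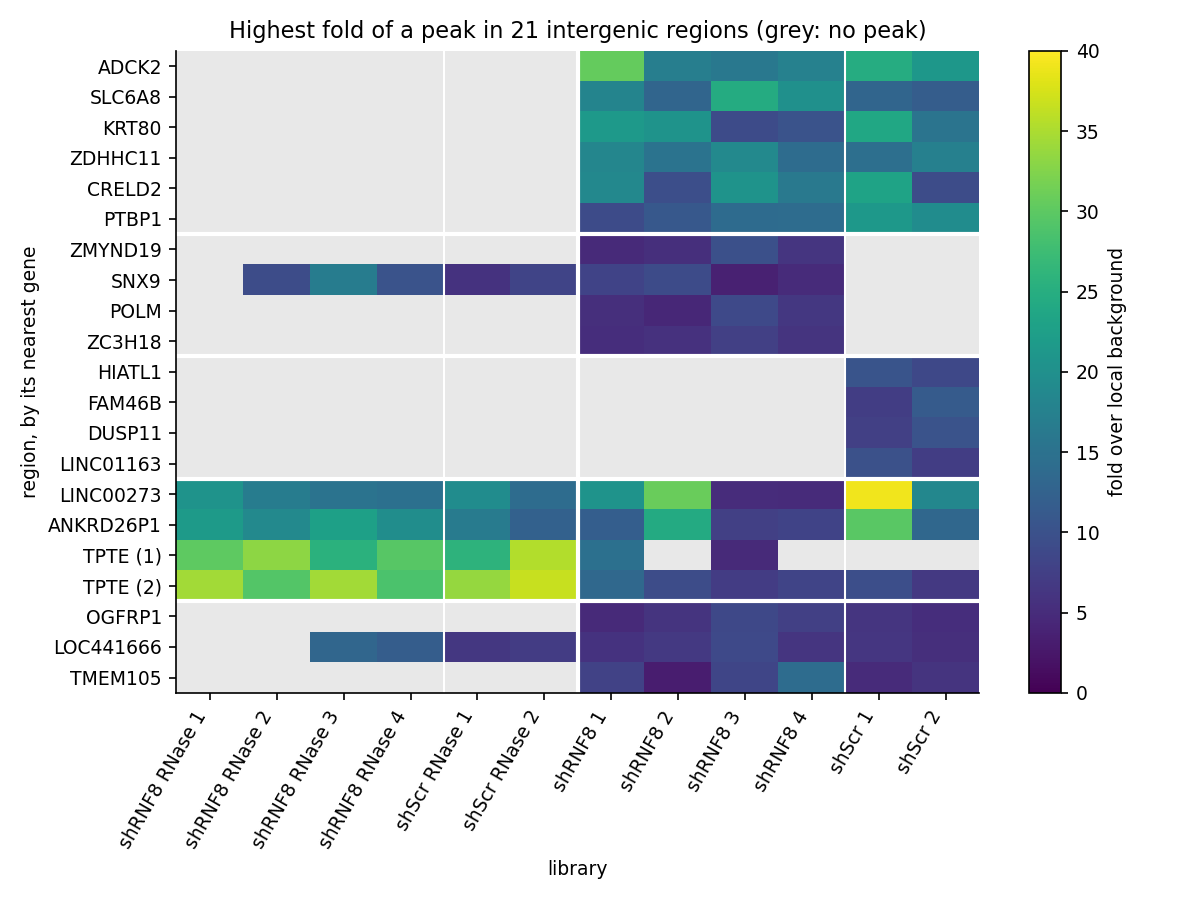
Each cell gives the highest fold over local background of a peak in 1 of 21 intergenic regions (rows, by nearest gene) and 1 library (columns, RNase-treated then untreated), with grey where the list holds no peak. From the top, the blocks are regions in all 6 libraries with no RNase-treated peak, regions in all 4 shRNF8 and no shScr library, regions in both shScr and no shRNF8 library, regions in the most RNase-treated libraries, and the longest; the 2 regions by TPTE have folds of 25.6 to 36.6 in the RNase-treated libraries.

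Regions with signal after RNase were few, and some of them lay in clusters. A peak of at least 1 RNase-treated library overlapped 396 intergenic regions (4.12%, against 1.61% of all regions), and peaks of at least 4 overlapped 153 (1.59%, against 0.352%). The share with any RNase-treated peak was 0.980% at 1 to 2 kb from a gene, 1.84% at 5 to 10 kb, 8.52% at 20 to 50 kb, 23.8% at 100 to 500 kb and 64.9% (37 of 57 regions) beyond 500 kb. Per Mb of tiled intergenic sequence such regions were not more frequent far from genes. They stood at 0.521 at 5 to 10 kb, 0.380 at 20 to 50 kb, 0.124 at 100 to 500 kb and 0.183 beyond 500 kb. How much of that sequence is unsequenced or unmappable was not tested, so these densities may be too low far from genes. Of the 396, 251 lay within 50 kb of a gene and 99 beyond 100 kb, where 45.1% of intergenic sequence lies. The 153 regions had a median distance of 68.7 kb, and 8.50% of them were called in all 6 untreated libraries. The 9224 regions without an RNase-treated peak had a median distance of 8.07 kb, and 3.01% were called in all 6.

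The cluster with the most such regions lay on chromosome 21, where 36 intergenic regions between 10652014 and 10739906 covered 67.4 kb, with TPTE as their nearest gene at 45.8 to 133 kb. All 36 overlapped peaks of at least 4 RNase-treated libraries, 23 of them peaks of all 6, and TPTE itself had 0 counts in every RNA library. In chr21:10718790-10730829 the folds were 34.5, 29.3, 34.5 and 28.7 in the RNase-treated shRNF8 libraries and 33.7 and 36.6 in the RNase-treated shScr libraries, and the untreated libraries had peaks there as well. The immunoglobulin kappa locus (IGK) on chromosome 2, between 89585560 and 89846265, held 29 regions, none of them called in all 6 untreated libraries, and 27 with an RNase-treated peak. Single regions of the same kind were chr16:34588005-34588397 and chr16:46390414-46391369, on either side of the centromere, with peaks in all 12 libraries and folds up to 39.1 in shScr replicate 1.

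In mRNA, genes nearest to intergenic regions were compared between hairpins in a fit over all 14018 genes tested. Of the 3008 nearest genes tested, 22 were higher in shRNF8 (0.731%, against 0.97% of all genes tested) and 77 were lower (2.56%, against 1.57%). Their median log2 fold change was -0.04, against -0.0048 over all genes tested. Genes beside the 312 regions common to all 6 DRIP libraries had 2 higher and 7 lower of 197 tested, those beside regions of all 4 shRNF8 libraries only had 1 of 31 that passed, a lower one, and those beside regions of both shScr libraries only had 2 higher and 5 lower of 210. The counts changed whichever RNA library was left out. The 99 calls became 1023 without shScr replicate 1, and 10 to 33 without any 1 of the other libraries. The 1023 were 33.6% of the nearest genes tested in that fit, against 27.1% of all genes tested there.

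Among nearest genes that were higher in shRNF8, the cadherin gene CDH11 has a region 1.07 kb upstream (chr16:65122938-65123496), called in 1 library of each hairpin. CDH11 had 68.2, 71.5 and 73.9 CPM in shRNF8, against 35.8, 21.4 and 19.2 CPM in shScr, a 2.79-fold difference (edgeR adjusted p = 0.00646). CFAP45, of ciliary axonemes, has a region 8.18 kb upstream that 3 shRNF8 and both shScr libraries called. Its mRNA stood at 8.43, 9.74 and 9.11 CPM in shRNF8, against 4.33, 4.55 and 4.10 CPM in shScr (2.10-fold, edgeR adjusted p = 0.00796). PCDH7, a protocadherin (2.15-fold, edgeR adjusted p = 0.0193), and SMARCD3, a subunit of the BAF chromatin remodeller (1.77-fold, edgeR adjusted p = 0.0194), have regions 2.35 and 1.93 kb upstream in shRNF8 replicates 3 and 4 only, and that of SMARCD3 also had a peak in 1 RNase-treated library. TMEM242 (1.60-fold, edgeR adjusted p = 0.0400) is the only one of the 10 beside a region of both shScr and no shRNF8 library, 10.9 kb downstream. CDH11 did not pass without shRNF8 replicate 3 (edgeR adjusted p = 0.0660), CFAP45 without shRNF8 replicate 2 or 3, SMARCD3 without any 1 of the shRNF8 libraries, and PCDH7 and TMEM242 when any 1 of the 5 libraries besides shScr replicate 1 was missing, with edgeR adjusted p-values up to 0.170.

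Among nearest genes that were lower, TBC1D10B, which encodes a GTPase-activating protein for Rab proteins, had 41.0, 38.4 and 37.5 CPM in shRNF8, against 93.2, 79.6 and 91.2 CPM in shScr. The groups lay far apart, at a log2 fold change of -1.18 (SE 0.10, edgeR adjusted p = 0.000369), and TBC1D10B passed whichever library was left out. Its region, 1.91 kb upstream, was called in shRNF8 replicate 4 only. DDIT4, an inhibitor of mTORC1, has 2 regions 22.2 and 24.7 kb downstream, the farther of which (chr10:72300331-72301040) 3 shRNF8 and both shScr libraries called. DDIT4 had 15.1, 13.9 and 10.9 CPM in shRNF8, against 22.1, 47.3 and 45.6 CPM in shScr (log2 fold change -1.53, edgeR adjusted p = 0.0250). ID1, an inhibitor of basic helix-loop-helix factors, has 5 upstream regions between 8.87 and 15.7 kb away, each called in 1 to 3 libraries (log2 fold change -1.17, edgeR adjusted p = 0.00994). AGO4, an Argonaute protein gene, has 3 upstream regions, all called in shRNF8 replicates 3 or 4 only (log2 fold change -1.07, edgeR adjusted p = 0.0338), and ADAMTS2, a gene for an enzyme of collagen maturation, has 1 region 13.9 kb downstream in shRNF8 replicate 3 (log2 fold change -1.29, edgeR adjusted p = 0.0362). ID1 did not pass without shRNF8 replicate 1 or 3 (edgeR adjusted p up to 0.0905), and DDIT4, AGO4 and ADAMTS2 lost the call when any 1 of those 5 libraries was missing (edgeR adjusted p up to 0.182).

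The genes nearest to the most intergenic regions were TPTE with 36, the Hedgehog transcription factor gene GLI2 with 32, MIR4436A with 29 (those of the IGK locus, 773 to 1034 kb away), and FBRSL1 and FAM53A with 28 each. GLI2 had 38.7, 41.9 and 31.9 CPM in shRNF8, against 32.6, 38.9 and 33.9 CPM in shScr (edgeR adjusted p = 0.701). FBRSL1 had 55.8 ± 5.22 CPM in shRNF8 and 72.1 ± 4.28 CPM in shScr (SD, n = 3 each, edgeR adjusted p = 0.0778). No region by GLI2, FBRSL1 or FAM53A had peaks in 4 or more RNase-treated libraries.

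A list of factors that end transcription, degrade non-coding and read-through transcripts or resolve R-loops, such as the RNase H subunits and TOP1, was looked at last. None of the 37 listed genes passed in either direction, by edgeR (smallest adjusted p = 0.129) or by DESeq2, against 2.54% of all genes tested by edgeR. An unadjusted edgeR p under 0.05 was reached by 5 of them (13.5%), against 20.1% of all genes tested. The 37 log2 fold changes lay between -0.26 and 0.30, with a median of 0.12, against -0.0048 over all genes tested. XRN2 had 154, 159 and 169 CPM in shRNF8, against 169, 138 and 126 CPM in shScr, so the groups overlapped (edgeR adjusted p = 0.468). Without shScr replicate 1 its log2 fold change was 0.28 and passed (edgeR adjusted p = 0.0165), and without shScr replicate 3 it was 0.066 and did not pass (edgeR adjusted p = 0.875). Without shScr replicate 1, 16 of the 37 listed genes passed (43.2%, 14 higher and 2 lower). In that same fit 33.6% of the nearest genes tested and 27.1% of all 14259 genes tested passed. The cleavage factor gene CPSF2 had the smallest p of the list, at a log2 fold change of 0.26, and ZFC3H1, of RNA decay by the nuclear exosome, the lowest fold change, -0.26, without passing. RNASEH2C, an RNase H2 subunit gene, had the highest, 0.30, also without passing (edgeR adjusted p = 0.221).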

How the data were processed

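MDA-MB-436 cells were profiled by DRIP-seq (12 peak lists used) and RNA-seq (6 libraries). The authors deposited 1 narrowPeak list per library on hg38, with a score, a fold enrichment over local background (a linear ratio) and -log10 of p and q. The lists hold no read totals, so DRIP depth is unknown. Raw counts for 26485 genes were made with featureCounts from read pairs, per the file headers, with no strand option, so antisense and overlapping genes cannot be told apart. Count totals were 18121181 to 20006954 per library. The submitters' processing notes name Bowtie2 2.2.6, Trim Galore 0.6.6, STAR 2.7.9a, Picard 2.10.9, MACS2 2.2.7.1 and Subread 2.0.1, with no roles.

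Summits were placed against 26877 gene loci of the count table (genes on several chromosomes, or split by over 1 Mb, count as separate loci). Peaks sharing 1 bp were merged, and a region is intergenic when all its summits are. RefSeq (GRCh38.p14) gave later gene models; of 23384 genes matched by symbol, 92.3% have both ends within 10 kb of the table's. Hairpins and treatments were compared by exact permutation (two-sided), differences within libraries by exact sign flips. Counts were tested with edgeR 4.0.16 in R 4.3.3 (filterByExpr, TMM, quasi-likelihood, Benjamini-Hochberg, threshold 0.05), with DESeq2 1.42.0 as an alternative. CPM is TMM-scaled, and RPKM is CPM per kb of exon. Peaks were handled in Python 3.11.15 with pandas 2.3.3. Merging and the edgeR fit were tested on simulated data.

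Named regions were the 6 with the highest mean fold in all 6 libraries and no RNase-treated peak, the 4 highest of each hairpin alone, the 4 in the most RNase-treated libraries and the 3 longest. Named genes were the 5 higher and 5 lower nearest genes with the largest change among those that passed with a mean level of 5 CPM or more, the 5 nearest to most regions, and RNF8. Members, lists and rules were chosen with earlier results of these data known. Genome sequence around summits was not used here. Same-numbered RNA libraries did not deviate together (r = -0.0544, 0.108 and -0.233).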

Additional observations from a re-analysis of the deposited data

Results flagged for a closer look

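In 1 of 15 sets of 4 libraries examined, 1 library lay far from the others, where chance alone gives about 1 in 20. The downstream share of intergenic peaks 5 to 50 kb from a gene was 54.1% in the RNase-treated shRNF8 replicate 2, against 47.8%, 47.6% and 47.8% in RNase-treated shRNF8 replicates 1, 3 and 4. It rests on 85 peaks.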

How the results depend on the processing

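DRIP read depth is unknown, 2 shScr libraries limit every test between hairpins, and the sign-flip tests allow no p under 0.0625 with a library left out. Leaving out each library in turn, the difference in intergenic share ran from -0.786 to 0.317 points, that in number from -1057.5 to 497.5 peaks, in median fold from -0.268 to -0.197, in median width from -121 to -112 bp, in overlap with RNase-treated peaks from 2.11 to 2.32 points and in downstream share from -5.05 to -3.83 points. Regions of all 4 shRNF8 libraries only ran from 56 to 137, those of both shScr libraries only from 365 to 1637, since fewer libraries had to be alike. The counts of 56 and 137 were 0.632% and 1.49%, against 1.03% and 2.15% of all regions. Those of 365 and 1637 were 3.93% and 17.7%, against 2.91% and 12.4% of all regions. With the 30000 peaks of lowest q, an alternative added after seeing the data, the share and number differed by 0.206 points and 61.8 peaks. Both differences had the opposite sign. At that setting 181 regions were of both shScr libraries only. The 181 made up 3.101% of the 5836 intergenic regions of that setting, against 2.502% of all regions. Only peaks with a -log10 q of at least 5 gave 22 and 192 regions of shRNF8 and shScr only. These were 0.430% and 3.76%, against 0.756% and 2.87% of all regions. With no distance rule the fold difference was -0.0653 (exact sign-flip p = 0.0625). The cause of these changes was not tested. Calls among nearest genes numbered 243 by DESeq2 (63 higher, 180 lower), 182 by edgeR without a filter on low counts, and 10 to 1023 with a library left out. The 1023, without shScr replicate 1, were 33.6% of the nearest genes tested, against 27.1% of all genes tested. Shares over all genes are not given here for the other settings. With the replicate block, pairs 1 and 2 gave -1.38 points of share, -1567 peaks and -3.89 points of downstream share, the 6 RNase pairs 44.4 points (exact sign-flip p = 0.03125), and edgeR 138 calls. Of the 10 nearest genes named, DDIT4 did not pass with that block (edgeR adjusted p = 0.0862), and DDIT4 and AGO4 did not pass without a filter (edgeR adjusted p = 0.111 and 0.0761). GC content and motifs around summits were not run, as no genome was used here.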

Other observations

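Intergenic S9.6 peaks also lay at chromosome tips. The first 100 kb of chromosomes 2, 5 and X held 10 intergenic regions. Those nearest to a tip were chr2:10502-10940, called in shRNF8 replicates 1 and 2 (folds 23.6 and 11.6) and both shScr libraries (12.2 and 8.70), and chr2:11208-11848, called in 3 shRNF8 libraries (34.2, 15.5 and 7.97) and both shScr libraries (7.24 and 6.24). On chromosome 5, chr5:12892-14166 was called in shRNF8 replicates 1, 2 and 3 with folds of 29.1, 10.0 and 6.68 and in shScr with folds of 17.6 and 11.6. 1 RNase-treated library had a peak there. These regions were chosen after their values were seen.

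Contigs outside chromosomes 1 to 22 and X held 84 to 129 peaks in the RNase-treated libraries (5.49% to 26.4% of each list) and 21 to 65 peaks in the untreated S9.6 libraries (0.0543% to 0.134%).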
